A study of Canis lupus familiaris with 20 samples.

Results

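RHPN2 and UACA were described across canine mammary cancer cells and macrophages grown alone or together. Both were chosen by their measured ratios in macrophages, where earlier results of these arrays had them among the genes raised after co-culture, so those ratios are a description and were not tested. All their probes were found through the RefSeq accession each probe carries, which gave 3 probes of RHPN2 and 2 of UACA, or 2 of the 1045 genes with a symbol and 5 of the 43603 distinct probes.

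Macrophages came from CD64-positive monocytes sorted from the blood of healthy dogs and were not stimulated with growth factors. They were layered for 72 h on a simple carcinoma line (CMT-U27), a line from a spindle-cell tumour (CMT-U309), an anaplastic cancer line (P114) or an adenocarcinoma line (CMT-W1 or CMT-W2), the cancer cells carrying the dye CMTMR. Sorting then gave not stained macrophages and stained cancer cells, and RNA of each was set against the same cells in mono-culture on a pair of dye-swapped Agilent arrays, 20 arrays in all. A pair counted as 1 replicate, so n = 5 for each cell type, with 1 line behind each replicate. Co-cultured cells were trypsinized and sorted, whereas mono-cultured cells were scraped, and how many macrophage mono-cultures were kept is not given in the sources used here. The 5 macrophage ratios may therefore share a mono-culture, whereas their SDs, SEs and tests treat them as independent.

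RHPN2 encodes rhophilin-2, a scaffold protein tied to the organisation of the actin cytoskeleton, which sets cell shape and movement. UACA encodes nucling, a protein with ankyrin repeats and a long coiled coil first known as an autoantigen of the uvea, which takes part in apoptosis through the apoptosome, holds the pro-apoptotic protein PAWR in the cell and affects NF-kB signalling.

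The sorted populations were first checked against cell type markers. Of 30 macrophage genes listed, 18 could be named on the array, and all 18 were well above background on both arrays of every mono-cultured macrophage pair. In co-cultured macrophages 17 of the 18 were lower than in mono-culture in all 5 co-cultures, among them CD163, a scavenger receptor, whose log2 ratio ran from -8.61 to -1.78. Their summed level was 23.7% of that of mono-cultured macrophages with CMT-U27, 45.2% with CMT-U309, 11.9% with P114, 6.82% with CMT-W1 and 9.81% with CMT-W2. The cancer cells sorted from the same co-cultures held 100.2%, 19.5%, 6.97%, 2.26% and 14.9%, in the same order. The CMT-U27 libraries thus stood against their labels, with 18 of 18 macrophage markers higher in the cells labelled cancer than in those labelled macrophages, and in CMT-W2 12 of 18 were. In the other 3 co-cultures 2 to 6 of 18 were. The brightest probes' mean ratios, the members' tests in cancer cells and the counts called below are therefore also given without CMT-U27 and CMT-W2. This setting was added once these marker values had been seen. Of 29 epithelial genes 4 were named (CLDN3, OCLN, TJP1, MUC1), and their summed signal was 2551 to 2730.3 in mono-cultured and 1862 to 11094 in co-cultured macrophages. OCLN and TJP1, both of tight junctions, were higher in 4 of 5 co-cultures (mean log2 ratios of 2.51 and 1.74). CLDN3 and MUC1 were higher in 2 of 5 (-0.23 and 0.60). Of 15 mesenchymal genes 6 were named, and their summed signal was 18913 to 23084 in mono-cultured and 15201 to 89869 in co-cultured macrophages, highest with CMT-U309. Of these BGN, a matrix proteoglycan, was higher in all 5, with log2 ratios of 2.05 to 3.67. PDGFRB was higher in 4 co-cultures, S100A4, COL1A2 and DCN in 3, and COL1A1 in 2. The part of these cell type signals in the results was not tested. The keratins, CDH1 and EPCAM were on the epithelial list but not among the 4 genes named, so they could not be assessed here. In sorted populations, fewer cells of a type and less RNA per cell cannot be told apart.

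On its brightest probe RHPN2 was high in 3 of the mono-cultured lines, low in CMT-W2 and not well above background in CMT-W1 or in any mono-cultured macrophages. Levels are log2 signals of single channels after normalization between arrays, averaged over both dyes, and a probe's level is compared only with itself. On its brightest probe (A_11_P0000019734) mono-cultured lines stood at 11.02 in CMT-U27, 12.02 in CMT-U309, 12.15 in P114, 6.79 in CMT-W1 and 7.99 in CMT-W2. The CMT-W1 signal was not well above background on either array, whereas the other lines passed on both. Mono-cultured macrophages stood at 4.53, 4.81, 4.63, 4.10 and 5.50 on the arrays of the same 5 co-cultures, and were well above background on 0 of 10 arrays. After co-culture the macrophages stood at 10.18 with CMT-U27, 8.14 with CMT-U309, 11.85 with P114, 8.34 with CMT-W1 and 9.39 with CMT-W2, well above background on 10 of 10. The co-cultured and mono-cultured macrophages did not overlap. As this contrast led to the gene and no share of all probes without overlap is given, nothing is read from it. Of the 5 member probes, only the brightest of RHPN2 was detected in at least 3 mono-cultured lines and on no mono-cultured macrophage array. That pattern held for 442 of 43603 probes (1.01%). By group mean the order was mono-cultured lines (9.99 ± 2.45, SD, n = 5), co-cultured macrophages (9.58 ± 1.51), co-cultured lines (8.35 ± 2.11) and mono-cultured macrophages (4.72 ± 0.51), and the first 3 overlapped in range. Here and for UACA, the SD of mono-cultured macrophages is over 5 array pairs that may share a mono-culture, as the number of mono-cultures is not given.

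**Figure D1:**
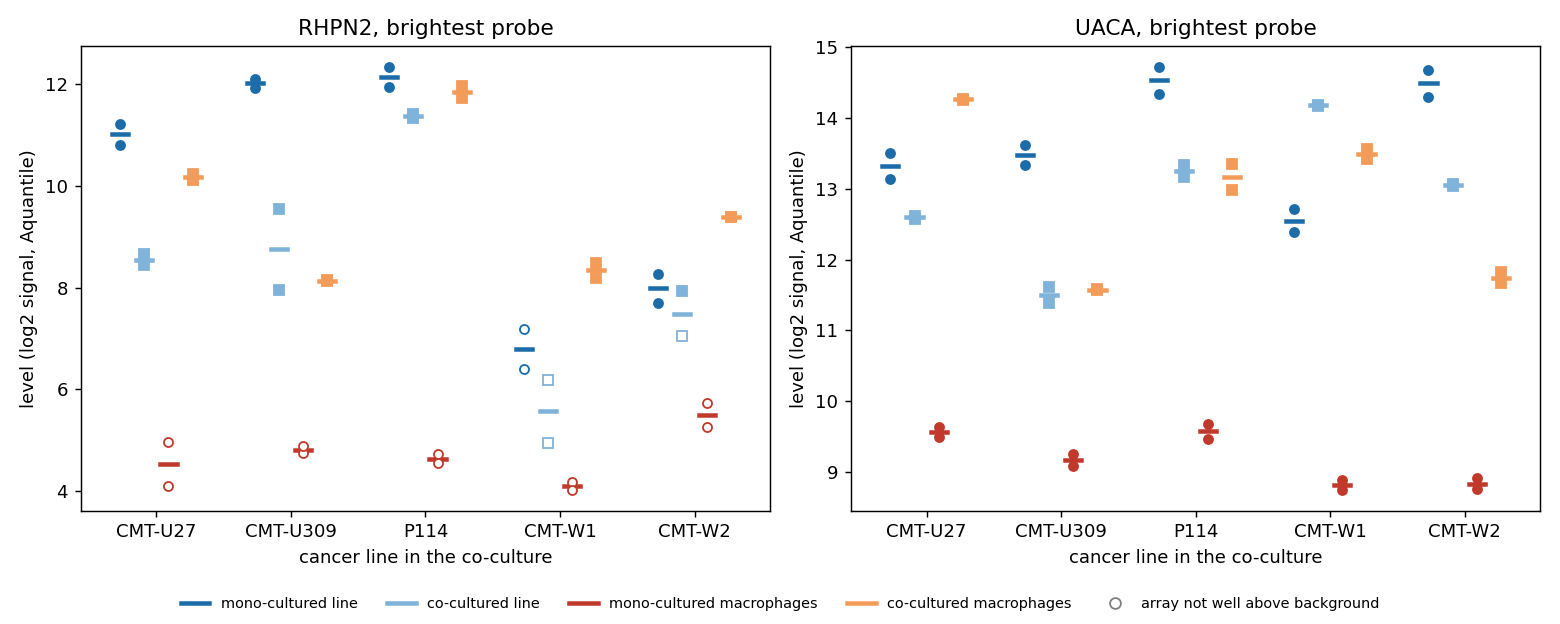
Level (log2 signal) of the brightest RHPN2 and UACA probes by cancer line, for the line and the macrophages, mono-cultured (circles) and co-cultured (squares); each point is an array, bars are the mean of a dye-swap pair, and open points were not well above background. Mono-cultured macrophages lay lowest in every co-culture, and RHPN2 in macrophages with CMT-W1 (8.34) and CMT-W2 (9.39) lay above the same mono-cultured lines (6.79 and 7.99).

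By the brightest probes, UACA differed from RHPN2 in that it was detected in every culture. On its brightest probe (A_11_P0000019833) every channel of every array passed the background call. Mono-cultured lines stood at 13.32 in CMT-U27, 13.47 in CMT-U309, 14.52 in P114, 12.55 in CMT-W1 and 14.49 in CMT-W2. Mono-cultured macrophages stood at 9.57, 9.17, 9.58, 8.83 and 8.84 on the arrays of the same co-cultures, a narrow band below every line. Co-cultured macrophages stood at 14.26 with CMT-U27, 11.57 with CMT-U309, 13.16 with P114, 13.49 with CMT-W1 and 11.74 with CMT-W2. The group means were 13.67 ± 0.84 in mono-cultured lines, 12.91 ± 0.98 in co-cultured lines, 12.85 ± 1.16 in co-cultured macrophages and 9.20 ± 0.37 in mono-cultured macrophages (SD, n = 5). The first 3 overlapped and the last stood apart from them all. Between the macrophage groups this is the contrast that led to the gene, and no share of all probes is given for it. The dimmer UACA probe (A_11_P050116) was well above background on 5 of 10 mono-cultured macrophage arrays and followed the brighter across the 20 cultures (Pearson r = 0.98, over cultures that share lines and arrays). Of the dimmer RHPN2 probes, A_11_P198413 was so on 6 of those 10 arrays and A_11_P053251 on 1. The difference in detection therefore depends on the probe.

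The ratio of co-culture over mono-culture in macrophages was above 0 for each of the 5 probes in each of the 5 co-cultures. For RHPN2 the brightest probe gave log2 ratios of 5.65 with CMT-U27, 3.32 with CMT-U309, 7.22 with P114, 4.24 with CMT-W1 and 3.89 with CMT-W2, a mean of 4.86 ± 1.57 (SD, n = 5). As its mono-culture signal was not well above background, bounds were taken against the higher of that signal and each array's dimmest detected probe. By this bound co-cultured macrophages held at least 14.7-fold more over all 5 co-cultures. A signal not called detected can lie above the dimmest detected probe, so these bounds, here and below, are a guide and not strict limits. Singly the bound was at least 24.8-fold with CMT-U27, 6.89-fold with CMT-U309, 71.8-fold with P114, 5.05-fold with CMT-W1 and 11.1-fold with CMT-W2. The other RHPN2 probes gave 3.0 ± 0.88 (A_11_P198413) and 2.97 ± 1.10 (A_11_P053251), with the lowest ratio of all 3 probes in the CMT-U309 co-culture. The mono-culture signal of A_11_P198413 passed the background call on 6 of 10 arrays and that of A_11_P053251 on 1 of 10. With normexp background correction and its offset of 50, which damps dim signals, the means of the 3 RHPN2 probes were 1.50, 1.16 and 0.68.

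For UACA the brighter probe gave macrophage log2 ratios of 4.69 with CMT-U27, 2.40 with CMT-U309, 3.59 with P114, 4.66 with CMT-W1 and 2.90 with CMT-W2, a mean of 3.65 ± 1.03 (SD, n = 5). The dimmer probe gave 5.24, 3.87, 4.97, 6.44 and 3.84, a mean of 4.87 ± 1.08. Both put the ratios with CMT-U309 and CMT-W2 lowest. The dimmer probe's mono-culture signal on the CMT-W1 arrays was not well above background, and the macrophages there stood at least 29.7-fold above it, so its ratio cannot be ranked against that of CMT-U27. Under normexp the means were 3.06 and 2.29, so the brighter probe moved less. Of the 5 member probes, 4 were at least 3-fold up in all 5 co-cultures, where 3.87% of the 28510 probes measured in macrophages were; this is the contrast that led to both genes, and nothing is read from it. The exception, A_11_P053251 of RHPN2, had a lowest measured rise of 2.97-fold, with CMT-U309, where its bound was at least 2.42-fold. Without CMT-U27 and CMT-W2 the brightest probes' means were 4.93 for RHPN2 and 3.55 for UACA (n = 3).

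**Figure D2:**
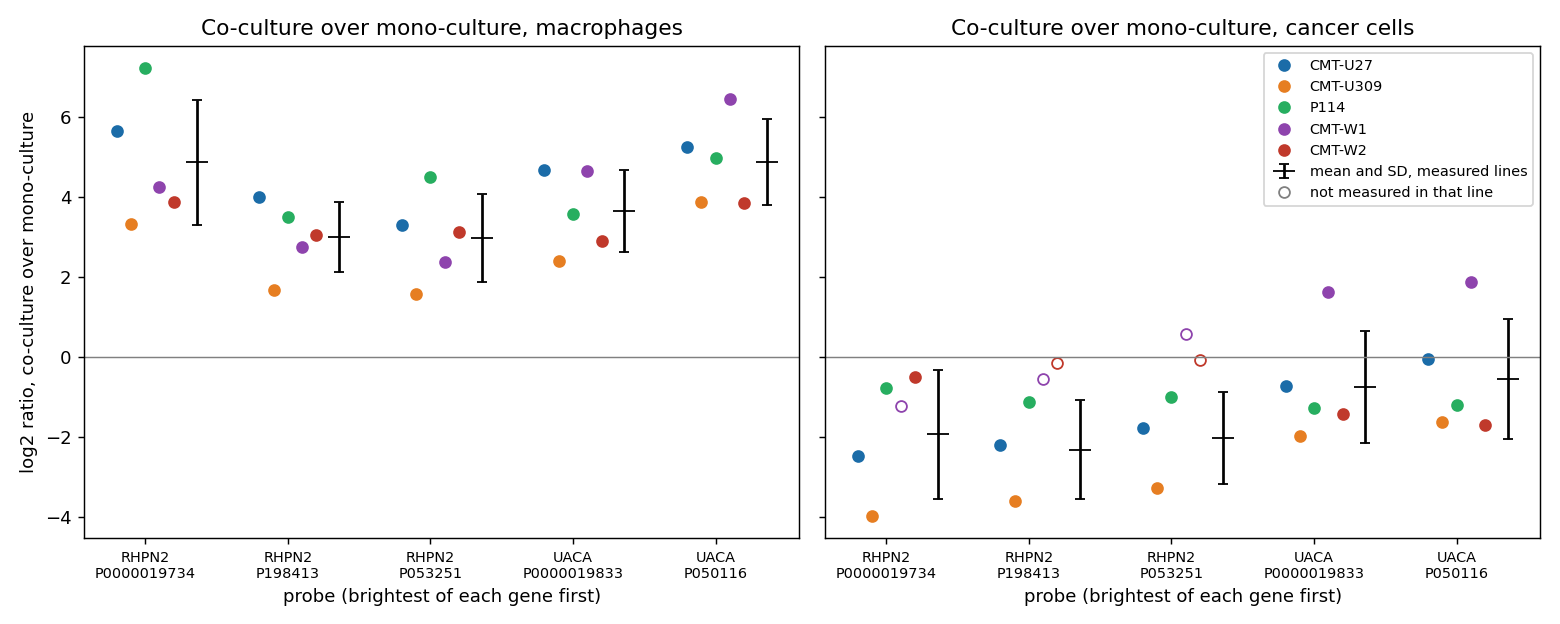
Log2 ratio, co-cultured over mono-cultured cells, for each RHPN2 and UACA probe, in macrophages and in cancer cells; points are co-cultures, open points were not measured in that line, and bars are the mean and SD of the measured lines. All macrophage points lie above 0 (lowest 1.57), and the RHPN2 points measured in cancer cells lie below it.

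The co-cultured macrophages were then set beside the line they had shared the culture with. With CMT-U27 and CMT-W2, macrophage markers were mostly higher in the cells labelled cancer, and the part of this in the values was not tested. For RHPN2 the brightest probe in co-cultured macrophages minus that in the mono-cultured line was -0.83 with CMT-U27, -3.88 with CMT-U309 and -0.30 with P114 on the log2 scale. With CMT-W1 and CMT-W2 the sign was the opposite, at 1.56 and 1.40, although the CMT-W1 value is taken against a line signal not well above background. Of the other RHPN2 probes, A_11_P198413 stood at least 1.60-fold above the CMT-W1 line and A_11_P053251 at least 3.30-fold above the CMT-W2 line, while A_11_P053251 allowed no bound with CMT-W1. The signs of the brightest probe were the same under both other normalizations, where CMT-W1 gave 0.39 and 1.44 and CMT-W2 gave 0.91 and 1.06. From highest to lowest, the level in these macrophages kept the order of the mono-cultured lines (P114, CMT-U27, CMT-W2, CMT-W1) apart from CMT-U309. Macrophages with CMT-U309, the line with the second highest level, had the lowest, and kept the largest share of macrophage markers (45.2%); the part of that share in the result was not tested.

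With CMT-W1 the sorted macrophages gave a higher RHPN2 signal than the line in either culture. The macrophages gave 8.49 in Cy5 and 8.19 in Cy3, the mono-cultured line 7.18 and 6.39, and the co-cultured line 4.95 and 6.18. None of these line signals was well above background. Against the higher of the line's signal and each array's dimmest detected probe, the macrophages stood at least 1.79-fold above the mono-cultured line. For the co-cultured line this bound was 2.60-fold, and neither bound is a strict limit. This pattern, detected in macrophages with CMT-W1 and on no array of mono-cultured macrophages or of CMT-W1 in either culture, was shown by 123 of 43603 probes (0.282%) and by 1 of the 3 RHPN2 probes. The CMT-W1 cancer arrays were dim, with 40.8% and 55.6% of spots well above background in the mono-culture channel against 63.0% and 70.4% in the co-culture channel of the CMT-W1 macrophage arrays. The part of this in the result was not tested.

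With CMT-W2 the line itself could be measured. Macrophages stood at 9.39, the mono-cultured line at 7.99 and the co-cultured line at 7.49, which was well above background on 1 of 2 arrays. The macrophages were 2.63-fold above the mono-cultured line. CMT-W2 is also a co-culture in which macrophage markers were mostly higher in the cells labelled cancer.

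For UACA the brightest probe in co-cultured macrophages minus that in the mono-cultured line was 0.94 with CMT-U27, -1.90 with CMT-U309, -1.36 with P114, 0.94 with CMT-W1 and -2.75 with CMT-W2. The dimmer probe gave the same signs, from -2.62 to 1.69. UACA therefore lay above the line with CMT-U27 and CMT-W1, and RHPN2 with CMT-W1 and CMT-W2. With CMT-U27 18 of 18 macrophage markers were higher in the cells labelled cancer than in those labelled macrophages, and with CMT-W2 12 were. In CMT-W1 the co-cultured line (14.17) stood above its macrophages (13.49), unlike for RHPN2.

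Other genes raised in the same macrophages are given beside these values, with no test. CAV1, a coat protein of caveolae, lay below the line in all 5 co-cultures, by -0.37 (P114) to -3.47 (CMT-W2). CAV2, its partner, lay at 0.44 with CMT-U27, -1.69 with CMT-U309, -0.17 with P114, -1.61 with CMT-W1 and -3.63 with CMT-W2 on its brightest probe. ABCC5, an export pump, lay at 1.07 with CMT-U27, 0.68 with CMT-U309, 1.91 with P114, -0.79 with CMT-W1 and 0.05 with CMT-W2 on its brightest probe. Among probes above a level of 9 in the mono-cultured line and detected on no mono-cultured macrophage array, the median difference was -1.11 with CMT-U27 (176 probes), -3.88 with CMT-U309 (187), -0.26 with P114 (155), -1.53 with CMT-W1 (250) and -2.39 with CMT-W2 (161). RHPN2 belonged to this set in the first 3 lines and lay at -0.83, -3.88 and -0.30 there. With CMT-U309 its own value is the median, so nothing is read from that match. With CMT-W1 and CMT-W2, where RHPN2 was too dim in the line to enter, 17 of 250 and 3 of 161 such probes lay above the line. The cut at 9 leaves out dim probes like RHPN2. With only detection on both arrays of the line required, 6.77% of 325 probes with CMT-W1 and 9.93% of 554 with CMT-W2 lay above it. RHPN2's brightest probe belonged to this wider set with CMT-W2 and not with CMT-W1.

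**Figure D3:**
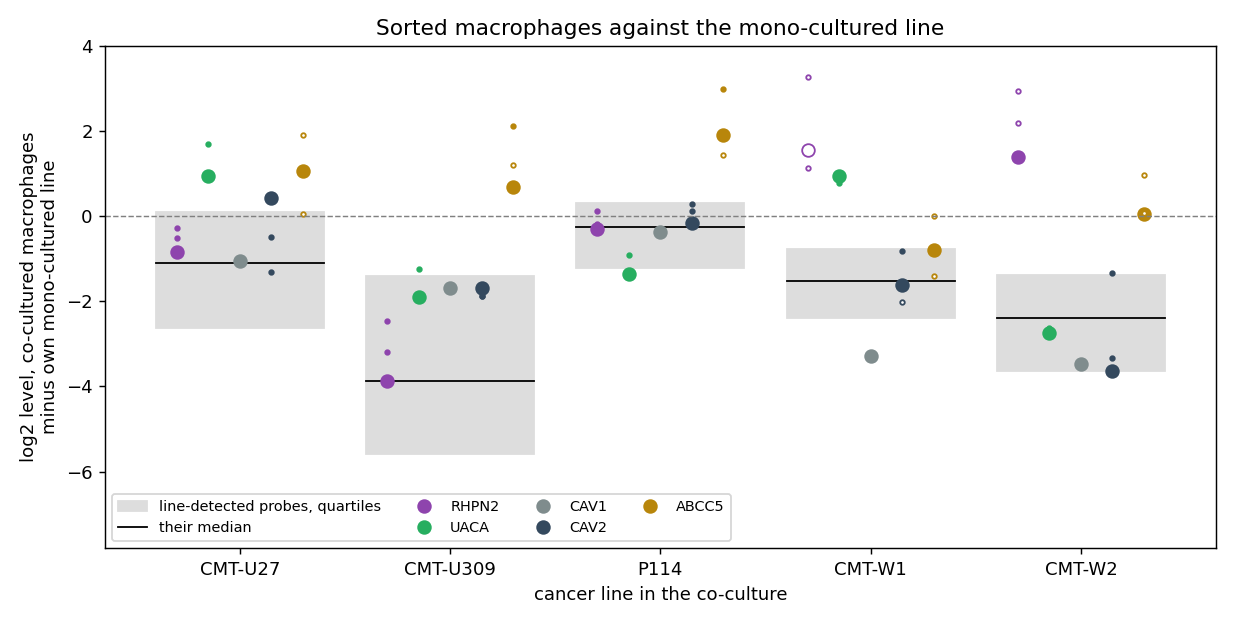
Log2 level in co-cultured macrophages minus that in the mono-cultured line of the same co-culture for RHPN2, UACA, CAV1, CAV2 and ABCC5; large points are each gene's brightest probe, small points its other probes, open points were not well above background on both arrays of the line, and grey boxes give the quartiles of probes above 9 in the line and undetected in mono-cultured macrophages. RHPN2 lies within the boxes in CMT-U27, CMT-U309 and P114, where it is itself among the boxed probes, and stands above 0 with CMT-W1 (1.56) and CMT-W2 (1.40).

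The cancer cells, whose ratios had no part in the choice of the genes, allowed a test. RHPN2 was lower in co-cultured than in mono-cultured cancer cells wherever it was measured, but the test was passed by 1 of its 3 probes, or by all 3 with the line as a replicate block, and neither UACA probe passed in either fit. limma was fitted to the 28269 probes measured in at least 3 lines, of which 14.5% passed at an adjusted p under 0.05 in either direction and 7.1% downwards. With the line as a replicate block 17.5% of these probes passed in either direction. RHPN2's brightest probe gave log2 ratios of -2.46 in CMT-U27, -3.97 in CMT-U309, -0.78 in P114 and -0.50 in CMT-W2. The CMT-U309 value rests on 1 array, since the other spot carried an outlier mark. That other array (co-culture in Cy5) held 9983 outlier spots, against 53 to 1533 on the rest. In its co-culture channel 96.3% of spots were well above background. The CMT-U309 ratios of the other member probes use this array, and the CMT-U309 levels of the brightest RHPN2 probe include the marked spot. CMT-W1 (-1.22) was left out as not above background. The brightest probe's mean was -1.93 ± 0.60 (SE, n = 4), with limma's adjusted p = 0.0786.

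The probe A_11_P198413 gave -2.20, -3.61 and -1.13 in CMT-U27, CMT-U309 and P114, and it fell by 2.31 ± 0.52 on the log2 scale (SE, n = 3, limma's adjusted p = 0.0433). Leaving out any line ended that call while the mean stayed at -2.90 to -1.67 (limma's adjusted p from 0.0510 to 0.127); CMT-W1 and CMT-W2 hold no value of this probe, and without them its mean was unchanged. Under normexp the mean was -1.56 (limma's adjusted p = 0.108). The probe A_11_P053251 gave -1.79, -3.28 and -1.0 in these lines, with a mean of -2.02 ± 0.50 and limma's adjusted p = 0.0532. All 3 probes put CMT-U309 lowest. Without CMT-U27 and CMT-W2 the brightest probe's mean was -2.38 (n = 2, limma's adjusted p = 0.189). That of A_11_P198413 was then -2.37 (n = 2, limma's adjusted p = 0.145) and that of A_11_P053251 -2.14 (n = 2, limma's adjusted p = 0.155). No RHPN2 probe passed in this setting. With the line as a replicate block over the single arrays all 3 probes passed, the brightest at -1.90 (limma's adjusted p = 0.0450), A_11_P198413 at -2.31 (0.0279) and A_11_P053251 at -2.02 (0.0258).

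UACA's brightest probe gave -0.72 in CMT-U27, -1.97 in CMT-U309, -1.28 in P114, 1.62 in CMT-W1 and -1.43 in CMT-W2. It was lower in 4 of 5 lines and higher in CMT-W1. The mean was -0.76 ± 0.50 (SE, n = 5, limma's adjusted p = 0.324), and the dimmer probe gave -0.54 ± 0.53 (limma's adjusted p = 0.502) with CMT-W1 again the only line above 0 (1.87). Without CMT-W1 the brightest probe passed the test, at -1.35 (n = 4, limma's adjusted p = 0.0369). Without CMT-U27 and CMT-W2 its mean was -0.54 (n = 3, limma's adjusted p = 0.663), and that of the dimmer probe was -0.32 (n = 3, limma's adjusted p = 0.805).

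Genes whose level over the 20 cultures was most like that of each member were ranked among 1043 other genes, as a description, since these cultures share lines, arrays and the same 2 cell types. For RHPN2 they were TPMT, a thiopurine methyltransferase (Pearson r = 0.93) and, among the next 4, PTGES2 (0.89), LOC403581 (0.86) and TES, a focal adhesion protein (0.86). For UACA they were CTNNB1, which encodes beta-catenin (0.96), YBX3 (0.92), the transcription factor MYC (0.91), INTS13 (0.87) and FZD6, a Wnt receptor (0.87). The lists share no gene, and the brightest RHPN2 and UACA probes had r = 0.72 with each other.

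Of the apoptosome, PAWR and NF-kB genes, the pathways of UACA, 15 of 37 listed could be named and all were tested. In macrophages, where 49.9% of 28510 probes passed, 5 rose and 2 fell. As the 5 macrophage ratios may share a mono-culture, they may be less independent than these tests assume. BCL2, which blocks mitochondrial apoptosis, rose by 2.38 ± 0.31 on the log2 scale (SE, n = 5, limma's adjusted p = 0.000756), BIRC3, an NF-kB target and apoptosis inhibitor, by 1.79 ± 0.33 (0.00308) and LGALS3, or galectin-3, by 1.79 ± 0.28 (0.00163), the values in parentheses being limma's adjusted p. NFKB1, an NF-kB subunit (0.74 ± 0.26, limma's adjusted p = 0.0428), and CYCS, which encodes cytochrome c (1.27 ± 0.45, 0.0468), also rose. The pro-apoptotic BAX fell by 1.53 ± 0.28 (limma's adjusted p = 0.00292) and CASP9, the caspase of the apoptosome, by 0.99 ± 0.28 (0.0202). In cancer cells, where 14.5% of all probes passed, 2 of the 15 rose, and 0 fell at an adjusted p under 0.05 in limma or at an unadjusted p under 0.05. These were BIRC3 by 3.75 ± 0.52 (n = 4, limma's adjusted p = 0.0117) and NFKB1 by 1.33 ± 0.31 (n = 5, limma's adjusted p = 0.0321). The count in cancer cells was 1 under normexp, with no filter, and when any line but CMT-W2 was left out. The list's median was 0.34 in macrophages, against -0.11 over all probes tested, and 0.50 in cancer cells, against -0.01. Without CMT-U27 and CMT-W2, 2 of these 15 passed in macrophages and 0 in cancer cells, with 24.8% and 0.806% of all probes passing at n = 3. At an unadjusted p under 0.05 these fits held 7 and 5 of the 15. The methods' t-test after adjustment called 0 of the 15 in cancer cells.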

How the data were processed

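RNA of 20 two-colour canine arrays (10 dye-swap pairs, 5 for each cell type) was analysed. The authors deposited the scanner output of Agilent Feature Extraction (version 10.7.3.1, per the submitters' processing notes), with spot signals as intensity and a log10 ratio of Cy5 over Cy3 after background and dye correction, other columns marking spots well above background, saturated or outlying, and a value table that equals this ratio turned to co-culture over mono-culture. Every column was assigned to a sample.

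From the deposited values, log2 ratios of co-culture over mono-culture were computed, outlier spots were left out and pairs averaged. A line counted as measured where either culture was well above background on both arrays, and a probe was tested with 3 or more such lines. An intercept was fitted for every probe with limma (version 3.58.1, in R 4.3.3), two-sided, with Benjamini-Hochberg adjustment over all probes. Levels came from processed signals after Aquantile normalization. Symbols came from the probes' accessions by way of a gene table (1648 probes, 1045 symbols) whose assembly is not that of the array, so no coordinates are given. A gene in a list was represented by its brightest probe. The number of arrays limits the precision.

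The members, lists and tests were chosen with earlier results of these data known. Named genes were all member probes, CAV1, CAV2, ABCC5, the 5 genes most like each member, and the 3 highest and 3 lowest called genes of each list, apart from genes and a list that are not reported here. Alternatives were normexp (offset 50, on median signals, the mean signals not being used here) with loess, median centring, the value table, outlier spots kept, single dye orientations, other filters, 1 probe per gene, the slide as a block, the line as a replicate block beside a dye term, the methods' t-test, the 75th percentile for levels, and each line left out. The fit was tested on simulated data. Ratios of the 2 populations sorted from 1 co-culture deviated from their group means with r of 0.02 to 0.46 across probes.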

Additional observations from a re-analysis of the deposited data

Results flagged for a closer look

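The change of RHPN2 had opposite signs in the cell types. All 5 macrophage ratios lay above 0 and all ratios measured in cancer cells lay below it, so that the mean in macrophages exceeded that in cancer cells by 6.79 on the log2 scale for the brightest probe (4 lines measured in cancer cells), by 5.32 for A_11_P198413 and by 5.00 for A_11_P053251 (3 lines each). These sizes rest in part on mono-cultured macrophage signals that were not well above background, on all 10 arrays for the brightest probe, and under normexp the brightest probe's means were 1.50 and -1.35. The signs include CMT-U27 and CMT-W2, where macrophage markers were mostly higher in the cells labelled cancer than in those labelled macrophages. Without these co-cultures the brightest probe's means were 4.93 in macrophages (n = 3) and -2.38 in cancer cells (n = 2). The difference was not tested, since the macrophage ratios led to the choice of the gene. UACA did not show it, because CMT-W1 cells had a ratio above 0. In 28 groups of 4 or 5 values examined for the 5 probes, 0 held a value far from the others by Dixon's criterion.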

How the results depend on the processing

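In macrophages both genes stayed above 0 under each alternative. RHPN2's brightest probe moved most, to 1.50 under normexp, and leaving out a line gave 4.28 to 5.25, and 3.39 to 3.96 for UACA. In cancer cells RHPN2's brightest probe stayed below 0 (-2.41 to -1.25 with a line left out) and passed with the replicate block (-1.90) and with the slide as a block (-1.93, limma's adjusted p = 0.0123). Of all probes tested, 17.5% passed in the first of these fits and 34.8% in the second. UACA stayed below 0 too, at -1.35 to -0.45 with a line left out, and passed only without CMT-W1. The replicate block, whose consensus correlation between the arrays of a line was 0.88, also brought A_11_P053251 past the threshold and changed no other call of the 5 member probes. The 4103 probes called in cancer cells became 1038 under normexp, 2218 with the co-culture in Cy5 alone, 2513 with no filter, 9833 with the slide as a block, 1016 to 3158 with a line left out (lowest without P114, then 1593 without CMT-U27, 1643 without CMT-U309 and 2495 without CMT-W2) and 227 without CMT-U27 and CMT-W2. The methods' t-test left 9 after adjustment and 1198 at their unadjusted threshold, 0 of them member probes. In macrophages 14216 probes were called, and 7044 in the fit without CMT-U27 and CMT-W2. The causes were not tested. RHPN2 in mono-cultured macrophages and CMT-W1 was limited by background, so exact ratios against these signals are uncertain and bounds stand beside those of the brightest probe.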

Other observations

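Of the 123 probes detected in macrophages co-cultured with CMT-W1 but on no array of mono-cultured macrophages or of CMT-W1 in either culture, 8 carried a gene symbol. Beside RHPN2 they included CA9 (a carbonic anhydrase known as a hypoxia target), FGF7 (a growth factor of epithelium), GUCY1B1, KIT (a receptor kinase), RECK (an inhibitor of matrix metalloproteinases) and SLBP2. These genes were singled out after their values were seen, and no test was made.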
